A study of Caenorhabditis elegans with 3 samples.

Results

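The comparison described here sets Caenorhabditis elegans worms kept for 24 h with multiwall carbon nanotubes, hollow fibres of rolled carbon sheets, against worms kept with them for 4 h. It asked how the transcriptome of a continued exposure differed from that of a short one. All worms were hermaphrodites of the wild-type strain N2, raised as a synchronized culture on agar with Escherichia coli OP50 and used as young adults of 3 days. The exposed worms were then held in K-medium, a potassium and sodium chloride solution, with 1 mg/L of nanotubes at 20 °C, and whether they were fed there is not given in the sources used here. A further sample taken at 0 h, whose treatment is labelled as none, is used here for its levels and in the filter on brightness. Each time was measured on 1 Affymetrix array of total RNA from whole worms, 3 arrays in all, of which 2 enter the comparison. There was no replicate of any time and no unexposed sample at 4 h or 24 h among the arrays analysed, so that the length of exposure, the time in medium and the age of the worms cannot be told apart. The 24 h worms were about a day older than the 4 h worms.

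The genes compared were those with an array probe set annotated to 1 gene whose log2 intensity, averaged over the 3 arrays after adding 32, reached the median of all probe sets (7.09, an intensity of 103.9). A gene with several such probe sets was represented by its brightest. This left 8634 of the 17118 genes on the array. At the edge of the filter, F41C3.8 lay just inside with intensities of 99.3, 106.2 and 106.2 at 0 h, 4 h and 24 h, and Y105E8A.13 just outside with 103.8 on each array. A log2 ratio below is always the 24 h value over the 4 h value with 32 added to both intensities, a scale that understates changes of dim genes. "Higher" and "lower" mean at least 2-fold at 24 h against 4 h and are descriptions of these 2 arrays, without a test. Where 1 of the 2 intensities was under 67.8, the brightest of the controls for transcripts that are not in the worm, the change is given as at least a fold against that floor. Intensities listed without times are in the order 0 h, 4 h and 24 h, and a number in brackets after a gene or its intensities is its log2 ratio. A dagger (†) marks a gene read from a probe set that the manufacturer names as open to hybridisation with related transcripts, which holds for 39.0% of the genes compared.

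A C. elegans hermaphrodite makes its sperm once, late in larval life, stores them, and then switches for good to oocytes, which are fertilised from this store and laid as embryos. Its body is covered by a cuticle of collagens and cuticlins secreted by the epidermis, which is rebuilt at each larval moult together with a separate cuticle that lines the pharynx, and adults no longer moult. Its intestine is the main organ for digestion, yolk synthesis, fat metabolism, defence against ingested microbes and the breakdown of foreign compounds.

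On the deposited values, which the authors had already normalized, the arrays were alike in brightness. Medians lay between 100.2 and 102.8, and 57.4% to 58.0% of probe sets were above the floor. Spiked controls were dimmer at 24 h than at 4 h: all 9 hybridisation controls lay lower, by a mean log2 difference of -0.21 (SD 0.20), and so did all 12 poly-A controls (-0.37, SD 0.21). The signal of the 5' probes over the 3' probes of 4 worm transcripts was below 1 on every array. It was larger at 24 h for each of them, by a mean of 0.23 on the log2 scale (SD 0.10). At 4 h and 24 h it was 0.451 and 0.579 for the glyceraldehyde phosphate dehydrogenase control and 0.252 and 0.302 for actin. For ubiquitin it was 0.0336 and 0.0371, and for catalase 0.0577 and 0.0645. The part of these differences in the results was not tested beyond the scaling on the hybridisation controls given below. Markers of adult hermaphrodites were bright on every array. Intensities of the yolk protein genes vit-2, vit-5† and vit-6† were between 8249 and 25930.1, and the oocyte genes oma-2† and puf-5† between 2692 and 4616. Of 47 genes first transcribed in embryos, 31 were under the floor on every array, among them med-1, tbx-37 and hlh-1.

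Of the 8634 genes, 197 (2.28%) were higher and 278 (3.22%) lower at 24 h than at 4 h, together 5.5%. Counts of higher and lower genes in every gene list below are to be read beside these shares. The median log2 ratio of all genes was -0.00, its quartiles were -0.27 and 0.16, and the whole range ran from -3.30 to 4.17. Beyond 4-fold were 28 higher and 56 lower genes, and beyond 8-fold 5 and 1. Ratios above 0 were found for 3319 genes (38.4%) and below 0 for 4365 (50.6%). A further 950 genes had exactly the same deposited value on both arrays. In 53 of the 475 calls 1 of the 2 intensities was under the floor, at 4 h for 12 higher genes and at 24 h for 41 lower ones, and 11 and 24 of these were at least 2-fold from the floor itself. When the 24 h array was scaled to the 4 h array on the hybridisation controls, the median of all genes moved to 0.18 and the split became 322 higher and 208 lower, so the balance between the directions depends on the scaling.

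**Figure D1:**
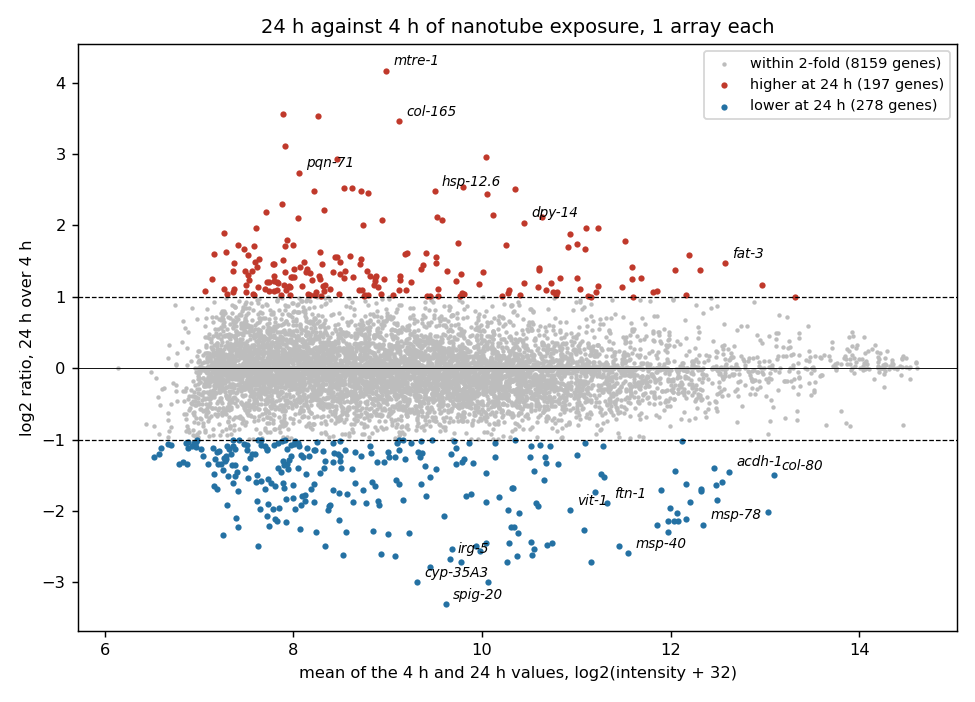
Log2 ratio of 24 h over 4 h (vertical axis) against the mean of the 4 h and 24 h values, log2(intensity + 32), for the 8634 genes, 1 array per time. The 197 genes at or above the upper dashed line (2-fold higher) are red and the 278 at or below the lower one (2-fold lower) are blue, and genes past 2-fold occur at all levels of brightness, with some genes of the text named.

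Among the genes above the floor on both arrays, the largest increases were spread over several families. The gene mtre-1† had intensities of 49.7 (0 h), 87.1 (4 h) and 2109 (24 h), a log2 ratio of 4.17. The collagen gene col-165 had intensities of 128, 136 and 1816 (3.46). Both lay near the floor or not far above it on the first 2 arrays and far above it on the last. Next in size came tts-2 (2.96), the pharyngeal gland gene phat-5† (2.93), pqn-71 (2.74), Y110A2AL.4† (2.53), Y97E10AR.1 (2.52), chtb-1 (2.52), cut-2† (2.51) for a cuticlin, clec-61† (2.49) for a lectin, hsp-12.6 (2.48) for a small heat shock protein, R02F11.1† (2.48), cpr-2 (2.46) for a cathepsin B-like protease, abu-14 (2.44) and pqn-13 (2.304). Of the genes under the floor at 4 h, the collagen gene col-74 was at least 10.5-fold higher, with intensities of 75.3, 58.1 and 1015. The bounds of the next were 8.19-fold for cut-3†, 7.07-fold for C54C8.12, 4.47-fold for hsp-16.2 and 3.86-fold for C14A4.9.

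The largest decreases held mostly sperm genes and genes that respond to foreign compounds or infection. The gene spig-20 had intensities of 5439 (0 h), 2431 (4 h) and 217 (24 h), a log2 ratio of -3.30. For T13F3.6† they were 3781, 2979.6 and 346 (-2.995), and its second probe set gave -3.45. Both genes had been bright at 0 h and 4 h. The other 13 of the 15 lowest were the cytochrome P450 genes cyp-35A3 (-2.996) and cyp-35A2 (-2.79), the infection response gene irg-5 (-2.67), the major sperm protein genes msp-50† (-2.72), msp-152† (-2.72), msp-64† (-2.63), msp-45† (-2.62), msp-40† (-2.59) and msp-142† (-2.57), the sperm-linked genes msd-4† (-2.71) and nspd-2† (-2.63), and F15E6.4† (-2.62) and pugs-8 (-2.60). Of the genes under the floor at 24 h, C34D4.3† was at least 4.7-fold lower, with intensities of 888, 437 and 51.2. The bounds of the next were 4.6-fold for the astacin protease gene nas-20, 3.68-fold for C27D6.3, 3.49-fold for cyp-35A4 and 3.43-fold for the cytochrome c gene cyc-2.2.

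**Figure D2:**
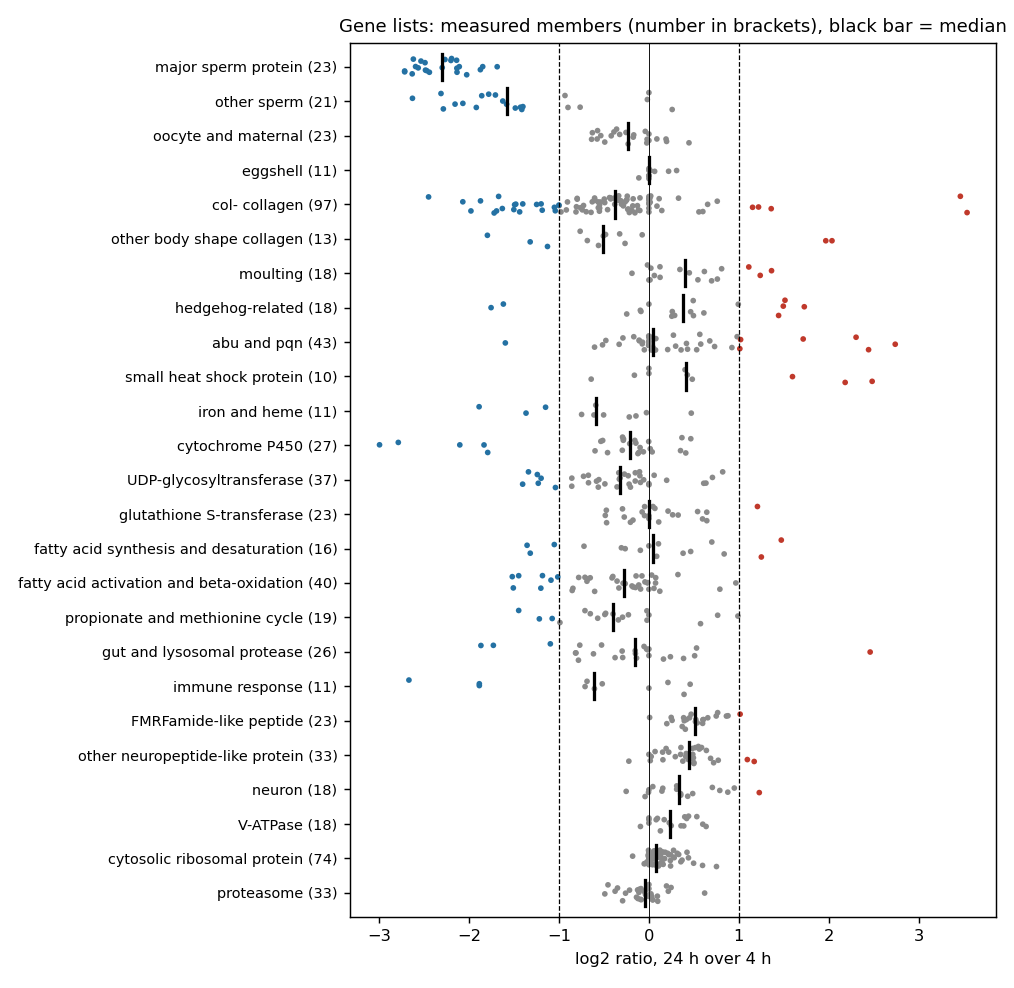
Log2 ratio of 24 h over 4 h (horizontal axis) of each measured member of 25 gene lists, 1 point per gene, with the number of measured members in brackets and the list's median as a black bar. Points past the dashed 2-fold lines are coloured red when higher and blue when lower. The 2 sperm lists lie far to the left, the neuropeptide lists lie mostly right of 0 within 2-fold, and the collagen, hedgehog-related and fatty acid desaturation lists hold members on both sides.

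Most of the measured sperm genes were lower at 24 h. Major sperm protein is the cytoskeletal protein by which nematode sperm crawl, and it also signals to oocytes. All 23 measured genes for it were lower, against 3.22% of all genes, with log2 ratios from -2.72 in msp-50 to -1.69 in msp-65 and a median of -2.299. The gene msp-40†, one of the brightest, had intensities of 10349 (0 h), 7327 (4 h) and 1186 (24 h). For msp-64† they were 5215, 3277 and 502. The level was highest at 0 h, smaller at 4 h and by far the smallest at 24 h. Summed over the 23 genes the intensity was 198629, 145472 and 31142 at the 3 times. All 23 were read from probe sets open to cross-hybridisation, since these genes are near-identical copies, so their values are not separate measurements of single genes.

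Other genes of spermatogenesis and sperm function went the same way. Of 21 measured, 15 were lower and none higher (median -1.58). The sperm protein phosphatase gene gsp-3† had intensities of 714 (0 h), 495 (4 h) and 107 (24 h), a log2 ratio of -1.92. Its close relative gsp-4† had a ratio of -1.41. Still lower were ssq-3† (-2.29) and nspd-4† (-2.31), of sperm-specific gene families. The ratio of ssq-2 was -2.16 on its brightest probe set and 0.14 on its second, so its call rests on the choice of probe set. The gene spe-11, whose product the sperm delivers to the egg, had intensities of 219.7, 143 and 61.5 (-0.90), short of 2-fold. Where only probe sets not open to cross-hybridisation were used, 6 of 9 such genes were lower (median -1.49). Both measured members of the msd family, named for the domain they share with major sperm protein, were lower as well, msd-4† (-2.71) and msd-2† (-2.45). In RNA from whole worms, fewer sperm and less RNA per sperm cannot be told apart.

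The lists of genes for oocytes, the eggshell, and germ cell proliferation and meiosis contained no gene past 2-fold. This held for 23 oocyte and maternal genes (median -0.23), 11 eggshell genes (median 0.00) and 30 genes of germ cell proliferation and meiosis (median -0.11). In the same order, 17, 1 and 20 of them had a ratio below 0, and 4, 4 and 8 above it. The other 2, 6 and 2 had a ratio of exactly 0, so the eggshell median rests on identical deposited values. The yolk receptor gene rme-2 had intensities of 1770.4 (0 h), 2209.8 (4 h) and 2352 (24 h), a log2 ratio of 0.09. The gene oma-1†, for an RNA-binding protein of maturing oocytes, had 1040.5, 1114 and 1114 (0.00). The ratio farthest from 0 among the oocyte genes was that of puf-11 (-0.64), a relative of the RNA-binding protein Pumilio.

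Among the 5 yolk protein genes, which the adult intestine expresses for the oocytes, 1 was lower. The gene vit-1 had intensities of 9514 (0 h), 3867 (4 h) and 950.2 (24 h), a log2 ratio of -1.99, and was smaller on each later array. The other 4 lay between -0.26 in vit-4† and 0.18 in vit-2. Of 8 measured genes first transcribed in embryos none was past 2-fold (median 0.16). The largest ratio was that of the hatching enzyme gene hch-1†, with intensities of 99.7, 326 and 592 (0.80). The pharyngeal muscle transcription factor gene ceh-22 had 62.1, 114 and 191 (0.61). Both levels were larger on each later array. Summed over the 47 genes of that list the intensity was 5339, 6084.6 and 6417 at 0 h, 4 h and 24 h, and the part of embryos inside the worms in the results was not tested.

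**Figure D3:**
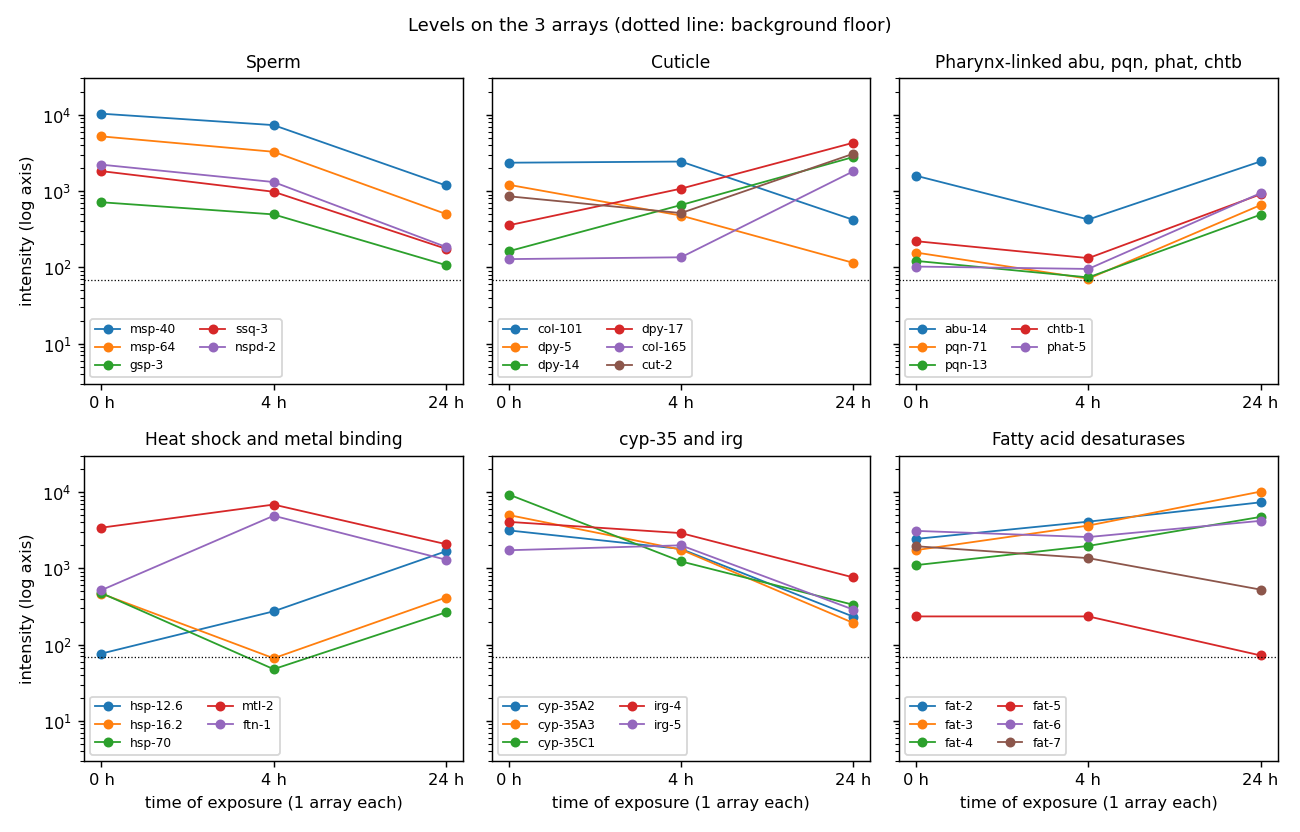
Intensity (log axis) of selected genes at 0 h, 4 h and 24 h, 1 array each, with the background floor of 67.8 as a dotted line. Sperm genes and the cyp-35 and irg genes are lowest at 24 h, cuticle genes and fatty acid desaturase genes split, the pharynx-linked genes dip at 4 h and are higher at 24 h, and mtl-2 and ftn-1 peak at 4 h.

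Cuticle collagen genes split within the family, with more of them lower. Of 97 measured genes with a col- name, 19 were lower and 5 higher, beside 3.22% and 2.28% of all genes. Their median was -0.38, and 73 had a ratio below 0 against 17 above. The gene col-101† had intensities of 2356 (0 h), 2439 (4 h) and 420.1 (24 h), a log2 ratio of -2.45. For col-60 they were 1383, 400.2 and 70.96 (-2.07). For col-81† they were 3614, 2434 and 593 (-1.98). All 3 were smallest at 24 h, when col-60 was close to the floor, and col-38† (-1.87) came next. Besides col-165 and col-74, given above, col-121† (1.36), col-109 (1.22) and col-76 (1.15) were higher. The call of col-109 rests on its brightest probe set, since its other one gave -0.31.

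Collagens known from mutants with altered body shape showed a similar split. Of 13 measured outside the furrow group, 2 were higher and 3 lower (median -0.51), beside 2.28% and 3.22% of all genes. The gene dpy-14 had intensities of 163 (0 h), 657 (4 h) and 2792 (24 h), a log2 ratio of 2.04. For dpy-17 they were 356, 1077 and 4302 (1.97). Both were larger on each later array. In contrast, dpy-5† had 1209, 477 and 115 (-1.80) and was smaller on each later array. Also lower were rol-8† (-1.32) and sqt-1†, the latter at least 1.92-fold, a bound that is itself short of 2-fold. When only probe sets not open to cross-hybridisation were used, 7 of these genes were left, with 3 higher and none lower. The calls thus depend on the choice of probe set. The collagen gene sqt-3, for instance, gave -0.07 on its brightest probe set and 1.56 on its second. None of the 5 collagens that form the circumferential furrows of the cuticle was past 2-fold, the largest ratio being that of dpy-7† (0.83). Neither was any of 10 genes for collagen processing enzymes (median -0.06).

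Genes of moulting were more often above 0 than below. Of 18 measured, 15 had a ratio above 0, against 38.4% of all genes. The 3 higher ones compare with 2.28% of all genes, and none was lower (median 0.40). The gene acn-1, for an angiotensin-converting enzyme-like protein needed for moulting, had intensities of 295 (0 h), 201 (4 h) and 569 (24 h), a log2 ratio of 1.36. For mlt-9† they were 108, 87.8 and 251 (1.24). The gene mlt-11†, for a secreted protein with protease inhibitor domains, had 239, 471 and 1053 (1.11). The former pair was smallest at 4 h, while mlt-11 was larger on each later array. Cuticlins are non-collagen proteins of the cuticle, and 2 of 6 measured genes for them were higher (median 0.37). The gene cut-2† had 855, 515 and 3085 (2.51). The gene cut-3† had 31.9, 37.2 and 785 and was above the floor at 24 h alone. Both were read from probe sets open to cross-hybridisation, and leaving out such probe sets left 3 genes with a median of -0.15.

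The hedgehog-related genes encode a nematode family of secreted proteins, many of them made by the epidermis. Of 18 measured, 4 were higher and 2 lower (median 0.38), beside 2.28% and 3.22% of all genes. The warthog gene wrt-1 had intensities of 148 (0 h), 108 (4 h) and 431 (24 h), a log2 ratio of 1.73. The ground-like gene grl-7† had 256, 108 and 369 (1.51). Another ground-like gene, grl-15, had 251, 132 and 431 (1.49). All 3 were smallest at 4 h and largest at 24 h. The groundhog genes went both ways. The gene grd-10 had 1409, 369 and 1059 (1.44) and was smallest at 4 h. Its neighbour in the genome, grd-3, had 3662, 1701 and 481 (-1.76) and was smaller on each later array, as was grd-5 (-1.62). Among 17 epidermal antimicrobial peptide genes 1 was lower, the caenacin gene cnc-8 (-1.003), and none higher (median -0.23).

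Genes linked to the lining and glands of the pharynx held some of the largest increases. The abu and pqn genes encode proteins rich in glutamine, asparagine or cysteine, and many abu products are parts of the pharyngeal cuticle. Of 43 measured, 6 were higher and 1 lower, beside 2.28% and 3.22% of all genes. The median was 0.05, so a minority of the members differed. The gene abu-14 had intensities of 1587 (0 h), 424 (4 h) and 2449 (24 h), a log2 ratio of 2.44 (1.89 on its second probe set). For pqn-71 they were 156, 70.97 and 656 (2.74). For pqn-13 they were 121, 73.8 and 490.5 (2.304, and 1.70 on its second probe set). Each was smallest at 4 h and largest at 24 h. Also higher were pqn-73† (1.72), abu-13† (1.02) and abu-8† (1.01, and 0.96 on its second probe set), and pqn-22† (-1.60) was lower. All 7 measured abu genes had a ratio above 0, the other 4 being abu-10 (0.98), abu-11† (0.73), abu-15† (0.21) and abu-6† (0.53). Probe sets annotated to several genes were not among these and went both ways. The one shared by pqn-2 and abu-1 was lower, with 1007, 322 and 107 (-1.34). The one shared by abu-7 and abu-8 was higher (1.09). With the brightness filter applied to the 4 h and the 24 h array separately, 35 abu and pqn genes were left and 2 were higher, abu-14 and abu-8, since pqn-71, pqn-13, pqn-73 and abu-13 were below the filter at 4 h.

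The chitin-binding gene chtb-1 had intensities of 220.3 (0 h), 132 (4 h) and 908 (24 h), a log2 ratio of 2.52 (1.62 on its second probe set), and was the 1 higher gene of 4 measured for chitin metabolism. Of 8 measured phat genes, which are expressed in the pharyngeal glands, 2 were higher and 1 lower (median 0.34). The gene phat-5† had 102, 95.3 and 941 (2.93). For phat-2† they were 282, 127 and 384 (1.39). The lower one was phat-3 (-1.01). The chitin and phat lists were drawn up after the values of this comparison had been seen. Among 77 measured nuclear hormone receptor genes, which encode ligand-regulated transcription factors, 3 were higher and none lower (median 0.04), a share near the 2.28% of all genes. The gene nhr-17 had 417, 117 and 657 (2.21). For nhr-3† they were 748, 320.2 and 1495 (2.12, and 1.304 on its second probe set). Both were smallest at 4 h and largest at 24 h, and the third was nhr-105 (1.04).

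Several inducible heat shock genes were higher at 24 h than at 4 h. Small heat shock proteins bind unfolded proteins, and the hsp-16 genes are switched on by heat and other protein-damaging stress. The gene hsp-16.2 had intensities of 466 (0 h), 66.3 (4 h) and 414 (24 h). Its neighbour in the genome, hsp-16.41, had 224, 50.3 and 217 and was at least 2.49-fold higher. The inducible gene hsp-70† had 474, 47.7 and 265 and was at least 2.98-fold higher. These 3 were under the floor at 4 h and above it at 24 h, below their 0 h level. Probe sets annotated to several genes were not among the 8634 genes, and 4 of those for inducible heat shock genes were past 2-fold, all above the floor on each array. They were chosen for naming after their values were seen. The probe set shared by hsp-16.49 and hsp-16.48 had intensities of 1679 (0 h), 230.1 (4 h) and 1539.5 (24 h), a log2 ratio of 2.58. For that shared by hsp-16.11 and hsp-16.1 they were 752, 101.01 and 852 (2.73). The HSP70 family genes F44E5.5 and F44E5.4 share 2 probe sets, with 2787, 431 and 3439 on one (2.91) and 1351, 189 and 2269.5 on the other (3.38). All 4 were smallest at 4 h, and all but that of hsp-16.49 and hsp-16.48 ended above their 0 h level. The gene hsp-12.6, a known target of the transcription factor DAF-16, had another course, 76.4, 274 and 1675 (2.48), larger on each later array. Of 10 measured small heat shock genes 3 were higher and none lower (median 0.41), beside 2.28% and 3.22% of all genes. With the filter applied to each array separately 8 were left, and only hsp-12.6 was higher. Of 10 genes of the larger HSP70, HSP90 and HSP60 chaperones hsp-70 alone was higher, with a median of -0.02 whose sign changes with the scaling.

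Metallothionein and ferritin genes were brightest at 4 h. Metallothioneins bind metal ions, and ferritins store iron. The metallothionein gene mtl-2† had intensities of 3419 (0 h), 6866 (4 h) and 2079 (24 h), a log2 ratio of -1.71, with its other probe sets between -1.92 and -1.16. The other metallothionein gene, mtl-1, had a 24 h value of 2108 against 3165 (-0.58), short of 2-fold. The ferritin gene ftn-1† had a 24 h value of 1300.0 against 4899.7 (-1.89). For the second ferritin gene, ftn-2†, the intensities were 5846, 8642 and 5131 (-0.75). All 4 genes were largest at 4 h, and mtl-2 and ftn-2 were below their 0 h level at 24 h.

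Of 11 measured iron and heme genes 3 were lower and none higher (median -0.59), beside 3.22% and 2.28% of all genes. Besides ftn-1 these were heme-responsive genes. The gene hrg-11.2† had 1706 (0 h), 1048 (4 h) and 387 (24 h), a log2 ratio of -1.37. The gene hrg-7, for a secreted protease-like protein in heme signalling between tissues, had 2596, 794 and 341 (-1.15). Both were smaller on each later array. Of 8 measured metal response genes mtl-2 was the only one past 2-fold (median -0.29). Among 10 genes activated by DAF-16, a list that includes ftn-1 and hsp-12.6, these were past 2-fold in opposite directions and the other 8 were not.

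Of 25 oxidative stress genes, 1 was higher, the thioredoxin gene trx-3 (1.13), and 1 lower (median 0.00). The lower one, the methionine sulfoxide reductase gene msra-1, had intensities of 4479 (0 h), 2213 (4 h) and 919.5 (24 h), a log2 ratio of -1.24, and was smaller on each later array. None of 10 genes of the hypoxia and hydrogen sulfide response was past 2-fold (median 0.12). The largest ratio there was that of rhy-1, a regulator of the hypoxia pathway, with 947, 309.7 and 614 (0.92). Among 10 aquaporin and osmotic response genes none was past 2-fold, and the water channel gene aqp-1 had 515, 1009.5 and 556 (-0.82), largest at 4 h.

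Detoxification enzymes that were past 2-fold were mostly lower. Cytochrome P450 enzymes oxidise foreign compounds, and the cyp-35 subfamily is known to be induced by many of them. Of 27 measured cytochrome P450 genes 5 were lower and none higher (median -0.21), beside 3.22% and 2.28% of all genes. All 5 belong to cyp-35. The gene cyp-35A3 had intensities of 5005 (0 h), 1762 (4 h) and 193 (24 h), a log2 ratio of -2.996. For cyp-35A2 they were 3147, 1798 and 233 (-2.79). For cyp-35A4 they were 1289.7, 317 and 49.2, the last under the floor. Each level was smaller on each later array. The same held for cyp-35C1†, with 9296, 1234 and 333 (-1.79, but -0.97 on its second probe set, short of 2-fold), and for cyp-35B2 (-1.83).

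UDP-glycosyltransferases attach sugars to compounds that are to be excreted. Among 37 measured genes 6 were lower and none higher (median -0.32), beside 3.22% and 2.28% of all genes. Their courses over the 3 arrays differed. The gene ugt-26 had intensities of 610.4 (0 h), 339.5 (4 h) and 108 (24 h), a log2 ratio of -1.40, smaller on each later array. The gene ugt-44 had 899.8, 1309.6 and 498 (-1.34). For ugt-31 they were 107, 353 and 132 (-1.23). The latter pair was largest at 4 h. The gene ugt-41 was at least 1.42-fold lower, a bound short of 2-fold.

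Glutathione S-transferases conjugate foreign and oxidised compounds to glutathione. Of 23 measured genes for them 1 was higher, gst-20† with 308 (0 h), 369 (4 h) and 894 (24 h), a log2 ratio of 1.21, and the others were within 2-fold (median 0.00). The gene gst-4, a common reporter of oxidative stress, had 981, 107 and 81.5 (-0.29) and so remained far below its 0 h level. The flavin monooxygenase gene fmo-1† had 129, 842 and 391 (-1.05), with -0.51 on its second probe set, and the other 2 of its list were within 2-fold. Of 28 ABC transporter genes, which encode membrane pumps, 1 was higher, pgp-11 (1.12), and none lower. The single higher genes of the transferase and transporter lists stand beside 2.28% of all genes.

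Fatty acid desaturase genes were found on both sides. In C. elegans, fat-5, fat-6 and fat-7 put the first double bond into saturated fatty acids, and fat-2, fat-1, fat-3 and fat-4 add further ones to make polyunsaturated fatty acids. The gene fat-3 had intensities of 1736 (0 h), 3641 (4 h) and 10158 (24 h), a log2 ratio of 1.47. Its neighbour in the genome, fat-4, had 1104, 1970.3 and 4731 (1.25). The gene fat-2 had 2435, 4099 and 7347 (0.84), short of 2-fold. All 3 were larger on each later array, and the ratio of fat-1 was 0.38. Of the enzymes for the first double bond, fat-5 had 235, 235 and 72.2 (-1.35). For fat-7 they were 1950.3, 1362 and 527 (-1.32). For fat-6† they were 3102, 2575 and 4202 (0.70). The levels of fat-5 and fat-7 were smallest at 24 h, and that of fat-6 was largest then.

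In all, 2 of 16 measured genes of fatty acid synthesis and desaturation were higher and 3 lower (median 0.04). The third lower one was elo-6†, an elongase gene for branched-chain fatty acids, with 4668 (0 h), 1587 (4 h) and 749 (24 h), a log2 ratio of -1.05. The related elongase gene elo-5† had a ratio of -0.72. Of 14 lipid-binding protein genes 2 were lower and none higher (median -0.30). The fatty acid and retinol-binding gene far-3† had 1267, 625 and 163 (-1.75). For lbp-5, of the intracellular lipid-binding family, they were 1134, 1208 and 506 (-1.205).

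Genes that break down fatty acids were lower where they were past 2-fold. Of 40 measured genes of fatty acid activation and beta-oxidation, a list drawn up after these values had been seen, 7 were lower and none higher (median -0.28), and 31 had a ratio below 0. The hydroxyacyl-CoA dehydrogenase gene hacd-1 had intensities of 1358 (0 h), 1153 (4 h) and 381 (24 h), a log2 ratio of -1.52. The enoyl-CoA hydratase gene ech-9 had 115, 249.6 and 67.0 and was at least 2.82-fold lower. The acyl-CoA dehydrogenase gene acdh-8 had 519.6, 261 and 95.2 (-1.202). The first and the third were smaller on each later array, and ech-9 was largest at 4 h. Together with acdh-2 (-1.01, but -0.81 on its second probe set), hacd-1 and ech-9 were also the 3 lower genes of 15 measured that are known to respond to fasting, none of which was higher (median -0.13). The acyl-CoA synthetase gene acs-2, often used as a marker of fasting, had 2214, 3249 and 1794 (-0.84).

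The propionate shunt, which breaks down propionate when vitamin B12 is short, also contained lower genes. Its acyl-CoA dehydrogenase gene acdh-1, which the list of fatty acid breakdown counts too, had intensities of 10234.5 (0 h), 10339.9 (4 h) and 3769 (24 h), a log2 ratio of -1.45. Its dehydrogenase gene hphd-1† had 6590.4, 3106 and 1317 (-1.22, and -1.43 on its second probe set). Its hydrolase gene hach-1 had a ratio of -0.99, just within 2-fold. The level of acdh-1 was nearly the same at 0 h and 4 h and well below both at 24 h, while hphd-1 was smaller on each later array. With the S-adenosylmethionine synthetase gene sams-5† (-1.08) this made 3 lower and no higher genes of 19 in the propionate and methionine cycle list (median -0.40). At the other end of the list lay pmt-1† (0.99), for a phosphoethanolamine methyltransferase. Of 24 genes of trehalose metabolism and glycolysis 1 was higher, the trehalase gene tre-5† (1.35), and none lower (median -0.26).

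Of 26 digestive protease genes of the gut and lysosome 3 were lower and 1 higher (median -0.15), beside 3.22% and 2.28% of all genes. The aspartyl protease gene asp-12 had intensities of 2197 (0 h), 1981 (4 h) and 519 (24 h), a log2 ratio of -1.87. For asp-13† they were 4323, 4231 and 1253 (-1.73). The third was asp-14† (-1.096), and all 3 differed little between 0 h and 4 h. In contrast, the cathepsin B-like gene cpr-2 had 86.2, 156 and 1004 (2.46). Lysozymes break bacterial cell walls, and of 8 measured genes 3 were lower and 1 higher (median -0.35). The gene ilys-5† had 14959, 8032 and 2588 (-1.62). Also lower were lys-2† (-1.68) and lys-4† (-1.53), and ilys-4 (1.04) was higher. The 3 lower lysozyme genes were read from probe sets open to cross-hybridisation.

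Of the 11 measured immune response genes 3 were lower and none higher (median -0.61), beside 3.22% and 2.28% of all genes. All 3 were infection response genes. The gene irg-5 had intensities of 1729 (0 h), 2005 (4 h) and 288 (24 h), a log2 ratio of -2.67. For irg-4 they were 4071, 2901 and 762 (-1.89). For irg-8 they were 3214, 806 and 195 (-1.89). Each was smallest at 24 h, and irg-8 was already well below its 0 h level at 4 h. Saposin-like genes, some of which encode pore-forming antimicrobial proteins, held 2 higher and 1 lower of 12 (median 0.38). The gene spp-8† had 701, 1094 and 3731 (1.74, and 1.83 on its second probe set). For spp-4 they were 1816, 796 and 232 (-1.65). The other higher one was spp-18 (1.26).

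C-type lectins are sugar-binding proteins, many of them secreted by the gut. Among 51 measured genes for them 4 were higher and 2 lower (median 0.00), beside 2.28% and 3.22% of all genes. The gene clec-61† had 29.3 (0 h), 93.5 (4 h) and 672 (24 h), a log2 ratio of 2.49, and was larger on each later array. The other higher ones were clec-264 (1.32), clec-52 (1.27) and clec-65† (1.19). Of the lower ones, clec-223 had 466, 614 and 138 (-1.93), and the other was clec-49† (-1.22). Of 5 measured genes for secreted CAP-domain proteins scl-5 (1.38) was higher and vap-2† (-1.19) lower. Of 32 transthyretin-like genes 2 were lower and none higher. The gene ttr-14 had 1416, 639 and 105 (-2.29), and the second was ttr-6 (-1.02).

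A list of genes linked to the intestine gave 2 higher and 1 lower of 21 (median 0.00). The oligopeptide transporter gene pept-1 had intensities of 959 (0 h), 181 (4 h) and 441 (24 h), a log2 ratio of 1.15. The intermediate filament gene ifp-1† had 228, 133 and 368 (1.28). Both were smallest at 4 h, and the lower gene was mtl-2, given above. The gut transcription factor gene elt-2 had 169, 189.7 and 171 (-0.13). The brush border actin gene act-5† had 3621, 905 and 1103 (0.28). Another gut marker, ges-1†, had 508, 559 and 342 (-0.66). The gut markers elt-2, act-5 and ges-1 thus differed by less than 2-fold between 4 h and 24 h. The gene pept-1, also a marker of the gut, was past 2-fold.

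Neuropeptide genes were shifted upwards by less than 2-fold. All 23 measured FMRFamide-like peptide genes lay above 0, beside 38.4% of all genes, with a median log2 ratio of 0.52 against -0.00 for all genes, and 1 was past 2-fold. The gene flp-3 had intensities of 199 (0 h), 271 (4 h) and 579.8 (24 h), a log2 ratio of 1.01. The next largest ratios were those of flp-12† (0.88) and flp-10 (0.86). Of 33 genes for other neuropeptide-like proteins 31 were above 0 and 2 past 2-fold (median 0.45). The gene nlp-80 had 346, 368 and 823 (1.09), and the second was nlp-2 (1.17). Neuropeptides are cut from precursors by processing enzymes, and the carboxypeptidase gene egl-21† had a ratio of 0.88 and the convertase cofactor gene sbt-1† one of 0.95. Of 16 insulin-like peptide genes 2 were higher, ins-35 (1.35) and ins-22 (1.04), and none lower (median 0.25). Relative to all genes, the median of the FMRFamide-like list was above 0 under each scaling tried.

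Of 18 measured neuron genes 1 was higher and none lower (median 0.33). The synaptic vesicle GTPase gene rab-3† had intensities of 666 (0 h), 520.4 (4 h) and 1261 (24 h), a log2 ratio of 1.23 (0.74 on its second probe set). The synaptic vesicle gene snb-1 had 2109, 2504 and 3387 (0.43). A general neuron marker, unc-119, had 154, 154 and 149 (-0.04), and another, rgef-1, was under the floor on every array. Summed over 27 neuron genes the intensity was 11338, 14074 and 19481.5 at 0 h, 4 h and 24 h. Summed over 24 muscle filament genes it was 84158, 80289 and 77464. The neuron sum thus grew over the arrays and the muscle sum shrank slightly, and the part of such differences in the neuropeptide values was not tested. No muscle gene was past 2-fold, the ratio farthest from 0 being that of the troponin I gene unc-27 (-0.92).

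Genes of the basic machinery of the cell were within 2-fold, although some lists leaned to 1 side of 0. Ratios were above 0 for 56 cytosolic ribosomal protein genes and below it for 9. For V-ATPase genes these counts were 14 and 1, and for proteasome genes 10 and 18, beside 38.4% and 50.6% of all genes. No cytosolic ribosomal protein gene of 74 was past 2-fold (median 0.08), nor any of 57 mitochondrial ribosomal protein genes (0.00), 34 translation factor genes (0.06), 33 proteasome genes (-0.04), 34 respiratory chain genes (0.01) or 18 genes of the V-ATPase, the proton pump of lysosomes (0.24). The largest single ratios among them were 0.93 for mrps-5, 0.87 for eef-1B.2 and 0.75 for rps-7, and the second probe set of eef-1B.2 gave 0.00. The 10 reference genes ran from -0.30 for the actin gene act-3 to 0.33 for tbp-1, which encodes the TATA-binding protein. The reference gene pmp-3 had intensities of 871 (0 h), 871 (4 h) and 867 (24 h), a log2 ratio of -0.01.

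Of the histone genes, none of 23 for core histones with a probe set of their own was past 2-fold (median 0.00). Of 7 genes for linker histones, which bind the DNA between nucleosomes, 1 was higher (median 0.06). The gene hil-7† had intensities of 1149 (0 h), 3135 (4 h) and 8183 (24 h), a log2 ratio of 1.38, with its other probe sets between 1.19 and 1.65. It was larger on each later array. Of 48 F-box genes, which encode parts of ubiquitin ligases, 1 was higher, fbxa-24† (1.47), and 1 lower, fbxc-50† (-1.04). None of 14 genes of DNA damage and apoptosis was past 2-fold, and the DNA repair gene xpa-1 (-0.70) had the ratio farthest from 0.

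Some features of the higher and lower genes were not used by the threshold. On the X chromosome lay 37 of the 197 higher genes (18.8%) and 27 of the 278 lower ones (9.71%), against 1159 of all 8634 (13.4%). Genes known by a sequence name alone were 38.6% of the higher and 39.2% of the lower genes, against 32.6% of all. Probe sets open to cross-hybridisation stood for 75 of the higher genes (38.1%) and 139 of the lower ones, against 39.0% of all genes. Genes of the 2 sperm lists made up 38 and collagen genes 22 of the lower genes. Among the higher genes 7 were collagen genes and none was in the sperm lists. The msd genes are not in these lists and were not counted. Without the genes of the sperm and collagen lists 190 higher and 218 lower genes remained of 8475. Among 4731 pairs of measured genes that are neighbours in the annotation, both were higher in 5 pairs and both lower in 12, in 5 pairs 1 was higher and the other lower, and in 362 only 1 of the pair was past 2-fold. The pairs with both higher included fat-3 with fat-4, hsp-16.2 with hsp-16.41 and wrt-1 with ZK1290.5.

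A second probe set of the same gene offered the closest available look at measurement error. Over 1830 genes with at least 2 passing probe sets, the squared differences within pairs corresponded to a technical SD of 0.29 for 1 log2 ratio. This value includes the mean offset between the brighter and the second probe set. It covers differences between probe sets on the same arrays and not those between worms, cultures or arrays. The brighter probe set gave the lower ratio in 72.6% of these genes. Its mean difference from the second over all 1830 genes was -0.18 (SE over genes of the same 2 arrays 0.0086). Of 29 higher genes with a second probe set, 27 were above 0 on it and 17 past 2-fold, and their median ratio was 1.40 on the brighter and 1.02 on the second. Of 29 lower genes 27 were below 0 on the second and 14 past 2-fold, with medians of -1.34 and -0.97. Since the genes were chosen by the value of the brighter probe set, the medians on the 2 probe sets are not compared.

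**Figure D4:**
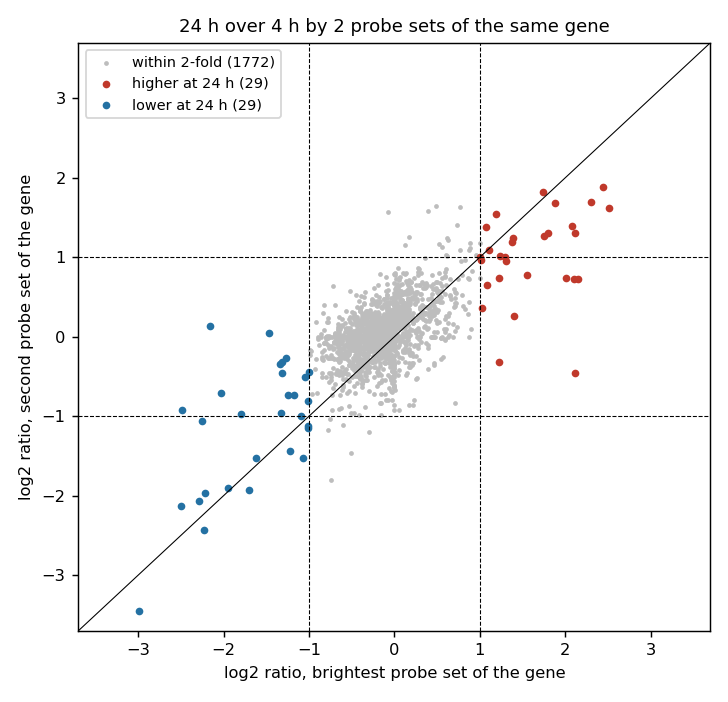
Log2 ratio of 24 h over 4 h on the brightest probe set (horizontal axis) and on the second probe set (vertical axis) of the 1830 genes with at least 2 passing probe sets, 1 array per time. Dashed lines mark 2-fold and the diagonal marks equal ratios. Of the 29 red genes (higher) 27 lie above 0 on the second probe set, and of the 29 blue ones (lower) 27 lie below 0.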

How the data were processed

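The authors deposited 1 normalized intensity per probe set and array, on a linear scale with 22625 probe sets. Biotin-labelled cRNA was made by 3' in vitro transcription, per the labels' protocols. The submitters' processing notes name Affymetrix Expression Console 1.1, MAS5 and RMA without saying which made these values. The deposited values were not renormalized. Of all probe sets, 77 were controls, 20766 had 1 gene in the array's annotation, 887 several and 895 none, and only those of 1 gene were used. Symbols were updated through the gene ID, which matched for 20701, to a gene table of the assembly WBcel235, also used for chromosomes and neighbours.

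Ratios, filter and floor are as given above. With 1 array per time there is no test and no p-value, and precision is limited by the number of arrays. The members, gene lists and rules were chosen with earlier results of these data known, and 5 lists (phat, astacin protease, chitin metabolism, fatty acid activation and beta-oxidation, msd) after the values of this comparison had been seen. Named were the 15 highest and 15 lowest genes above the floor, the 5 with the largest bound at either end, up to 4 members past 2-fold in each direction of each list of 3 or more, or else the largest, and the reference genes. Other members are named as markers or for their role and were chosen after their values were seen. Alternatives were other scalings, filters, pseudocounts, thresholds and probe sets. The computation was tested on simulated arrays. Python 3.11.15, numpy 2.4.6, pandas 2.3.3, statsmodels 0.14.6 and matplotlib 3.10.9 were used.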

Additional observations from a re-analysis of the deposited data

How the results depend on the processing

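The 197 higher and 278 lower genes became 216 and 272 after quantile normalization, 201 and 274 after centring on the median, 222 and 251 after removal of a loess trend (span 0.3) and 241 and 330 after subtraction of the 1st percentile with 16 added. Scaling on the hybridisation controls gave 322 higher genes, a filter at the 75th percentile 76 higher and 139 lower, and leaving out probe sets open to cross-hybridisation 131 and 145. A pseudocount of 100 gave 128 higher and 195 lower genes, a pseudocount of 1 250 and 339, a threshold of 1.5-fold 591 and 798, and 3-fold 52 and 122. Applying the filter to the 4 h and the 24 h array separately, an alternative chosen after seeing the data, gave 155 and 196. Of 135 named genes past 2-fold, 103 were past it in the same direction under each alternative run that could measure them. The sign turned for col-109 (-0.31) and ssq-2 (0.14) on the dimmest probe set, and the cause was not tested. Relative to all genes, the sign of a list's median changed with the scaling only for lists with medians near 0, those of the HSP70, oxidative stress, aquaporin, muscle filament, proteasome, F-box and DNA damage genes. The hedgehog-related median was -1.62 at the 75th percentile filter, where 3 genes were left, and the DAF-16 median 0.05 without cross-hybridising probe sets, where 6 were left. No paired analysis was possible because each time has 1 array. The planned search for promoter motifs was not run, as no promoter sequences were used here. Signal over background limits the 53 calls with 1 value under the floor to a bound.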

Other observations

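Of the 8484 genes below the brightness filter, 30 were at least 2-fold higher and 10 lower at 24 h than at 4 h, and these were chosen for naming after their values were seen. The neuropeptide-like gene nlp-39 was at 17.8 at 0 h, 21.1 at 4 h and 376.1 at 24 h, so it was far above the floor at 24 h alone. The higher ones also held the chitinase gene cht-5 (log2 ratio 1.49), the lipocalin-related gene lpr-4 (1.36), the patched-related gene ptr-18 (1.34) and hsp-16.2's relative hsp-16.20 (1.39). In the other direction, T22F3.11 was at 48.2, 326.8 and 37.9, above the floor at 4 h alone, and the transporter gene pgp-5 had a ratio of -1.19.

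Probe sets annotated to several genes were not part of the comparison. Of 367 that passed the same filter 12 were higher and 46 lower, and 8 of the latter list a major sperm protein gene. Others of the 46 list genes of the nspd, ssq or msd families, given above as sperm-linked, and these were not counted. The 5 largest increases among the 367 were those of the 4 heat shock probe sets given above, with log2 ratios from 2.58 to 3.38, and of the one shared by F35E8.13 and F35E8.10, with 34.6 at 0 h, 177 at 4 h and 1457 at 24 h (2.83). The probe set shared by msd-3 and msd-1 had a log2 ratio of -2.72, and that shared by the histone genes his-44, his-11 and his-15 was at 146.8 at 0 h, 317.1 at 4 h and 735.3 at 24 h (1.14). Of 182 passing probe sets with no gene in the annotation 5 were higher and 3 lower.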
